A study of Mus musculus with 3 samples.

Results

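The genes described here were 9 genes of the ureteric bud and of the collecting duct that forms from it: Gata3, Calb1, Emx2, Tfap2b, Elf5, Aqp2, Aqp3, Ros1 and Sox9. They were taken from the platform's probe-to-gene table as oligos that carry exactly 1 gene symbol, and 0 of the 9 were missing. Each was represented by 1 oligo with a value on all 3 arrays, among 19635 genes tested in all, so no probe of the same gene was at hand to check another. The rule picked genes by name and used no measured value, but the list was drawn up with earlier results of these data known. RNA from kidneys of CD1 mouse embryos at 13.5 days post coitum (dpc), in channel 1, was hybridised together with RNA of metanephric mesenchyme at 10.5 dpc, in channel 2, on each of 3 two-colour oligonucleotide arrays. Both tissues were normal, were taken by microdissection and were pooled over both sexes, and the RNA was amplified before labelling. The sources used here do not say how many embryos made a pool or whether the 3 arrays drew on separate pools, so the p-values reflect array-to-array spread alone, and that spread may be technical.

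Each array gave 1 deposited log2 ratio per oligo, so every value below is a difference between the tissues and never a level of RNA in either. The labels name neither the numerator nor the dye of each RNA, and mention a dye swap without tying it to an array. A gene is therefore called positive or negative by the sign of its deposited ratio, and neither sign is read as higher in the kidney. Over the library oligos the arrays correlated at 0.460 (arrays 1 and 2), 0.163 (arrays 1 and 3) and 0.151 (arrays 2 and 3), a description across oligos that are not independent replicates. Without levels, the labelled tissues could not be checked for the presence of their defining markers, and the depth of signal behind each ratio is unknown. In these bulk samples, fewer cells of a type and less RNA per cell cannot be told apart.

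The ureteric bud is an epithelial outgrowth of the nephric duct that enters the metanephric mesenchyme, branches repeatedly in response to GDNF acting through the receptor RET, and forms the collecting ducts and the ureter. Gata3 encodes a zinc-finger transcription factor of the nephric duct that is required for duct guidance and for Ret expression. Emx2 encodes a homeobox factor without which the bud fails to grow and branch, and Sox9 a factor of the bud tips that acts downstream of RET signalling. Later the duct cells take up water through AQP2, the vasopressin-regulated channel of the apical membrane, and release it through AQP3 in the basolateral membrane.

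Gata3 and Calb1 stood furthest from 0 of the 9 genes, both on the positive side on every array and both near a 2-fold difference. Ros1, Elf5 and Aqp2 were also positive on all 3 arrays, with smaller means, and Emx2 was slightly negative on all 3. Aqp3, Sox9 and Tfap2b had arrays of opposite sign and means near 0. Of the 9, 0 passed limma's test over all genes (Benjamini-Hochberg adjusted p from 0.109 to 0.909), where 0.00509% of all genes passed at an adjusted p under 0.05. At an unadjusted p under 0.05 there were 4 of 9 genes, Calb1, Gata3, Ros1 and Elf5, against 16.8% of all genes. All 4 were positive and 0 were negative, against 8.99% and 7.83% of all genes. The 3 arrays shared a sign for 6 of 9 genes, against 41.3% of all genes, with 5 positive (21.5%) and 1 negative (19.9%). For 2 of 9 the mean was 1 or more in size, against 5.33%, with 2 positive (2.35%) and 0 negative (2.98%). The mean was positive for 6 of 9, against 50.3%. The median of the 9 means was 0.34, where that of all genes tested was 0.0020. The 9 genes are too few, and were chosen with results of these data known, for these shares to be tested against each other.

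**Figure D1:**
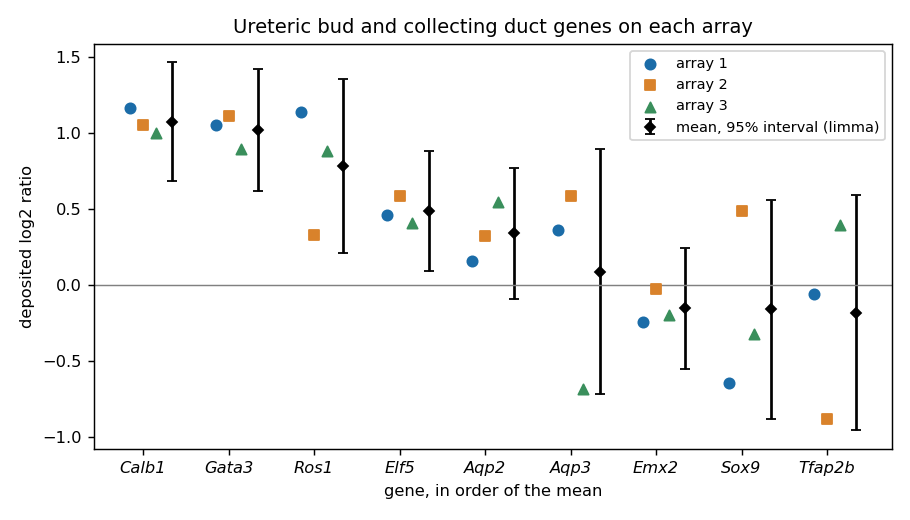
Deposited log2 ratios (vertical axis) of the 9 genes, in order of their mean, with 1 symbol per array and, in black, the mean with its 95% interval from limma. Calb1 and Gata3 lie between 0.90 and 1.16 on every array, while Aqp3, Sox9 and Tfap2b have arrays on both sides of 0.

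Among the transcription factors, Gata3 had log2 ratios of 1.05, 1.11 and 0.90 on arrays 1, 2 and 3. All 3 arrays were positive and lay close together. The mean was 1.02 ± 0.11 (SD, n = 3), a 2.03-fold difference, with a 95% interval of 0.62 to 1.42 (limma adjusted p = 0.110). Only 10.3% of the genes tested had an SD as small, and the mean ranked at the 97.8th percentile of all genes in the direction of the positive side. With 1 array left out the mean ranged from 0.97 to 1.08.

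The stretch of genome around the start of Gata3, a regulator, is shown beside that of Aqp2, a transport gene. Both genes were positive on all 3 arrays, as were Elf5 and Ros1, whose windows are not shown. Of the windows at hand, only those of Gata3 and Aqp2 hold a match to the motifs marked below. Both are the 250 bases before and 50 after a transcript start in RefSeq's annotation of build GRCm38.p6, at chr2:9878551-9878850 on the minus strand for Gata3 and chr15:99578806-99579105 on the plus strand for Aqp2, and the arrays themselves name no build. Capitals mark matches on either strand to the GATA motif (AGATAA or TGATAA) or to the AP-2 motif (GCCNNNGGC), and no marked match overlaps another.
Gata3: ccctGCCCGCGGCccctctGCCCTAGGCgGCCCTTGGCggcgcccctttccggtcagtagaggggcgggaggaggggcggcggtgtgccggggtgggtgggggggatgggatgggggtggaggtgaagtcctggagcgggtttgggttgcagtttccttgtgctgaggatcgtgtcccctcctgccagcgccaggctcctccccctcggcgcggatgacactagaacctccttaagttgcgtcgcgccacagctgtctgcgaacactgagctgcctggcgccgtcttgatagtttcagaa
Aqp2: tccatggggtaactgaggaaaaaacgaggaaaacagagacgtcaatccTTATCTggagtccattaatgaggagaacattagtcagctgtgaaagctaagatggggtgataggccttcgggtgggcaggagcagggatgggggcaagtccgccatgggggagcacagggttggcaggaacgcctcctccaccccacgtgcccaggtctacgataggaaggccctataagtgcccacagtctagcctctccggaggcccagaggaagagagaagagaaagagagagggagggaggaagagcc
The Gata3 window holds 3 AP-2 matches, which begin at -246, -231 and -221 from the start, and 0 GATA matches. The Aqp2 window holds 1 GATA match, beginning at -202, and 0 AP-2 matches. Beside it, at -211, lies 1 match to TGACG, the core of the cyclic-AMP response element. That match is not particular to Aqp2. TGACG matches also lie in the windows of Tfap2b (-108), Emx2 (-73) and 1 start of Elf5 (-56). Of 32851 windows of the same length in the table, 18.6% hold a GATA match, 16.6% an AP-2 match and 20.8% a TGACG match. Of the 9 genes 7 had an entry, with 8 windows in all, and the other 6 windows (Tfap2b, Emx2, Aqp3, Ros1 and both starts of Elf5) held 0 GATA and 0 AP-2 matches. These are matches of letters only, and the arrays do not measure binding.

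Elf5, an ETS-domain factor of epithelia including the collecting duct, had 0.46, 0.59 and 0.41 on arrays 1, 2 and 3. The arrays agreed closely, on the positive side. The mean was 0.49 ± 0.092 (SD, n = 3), a 1.40-fold difference, with a 95% interval of 0.093 to 0.88 (limma adjusted p = 0.234). Without array 1 (mean 0.50) or array 2 (mean 0.43) the unadjusted p was 0.108 and 0.142.

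Emx2 had -0.24, -0.023 and -0.19. All 3 arrays were negative, array 2 only just. The mean was -0.15 ± 0.11, and the 95% interval of -0.55 to 0.25 holds 0 (limma adjusted p = 0.655). The upper bound lies below the lowest array of Gata3, at 0.90.

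Sox9 had -0.64, 0.49 and -0.32, with array 2 on the other side from arrays 1 and 3. The mean was -0.16 ± 0.58 and the 95% interval -0.88 to 0.56 (limma adjusted p = 0.802). Without array 1 the mean turned to 0.084. Tfap2b, an AP-2 factor needed for the survival of renal epithelial cells, had -0.057, -0.88 and 0.40. Array 2 was the low one and array 3 the only positive one. Its mean was -0.18 ± 0.65, with an interval of -0.95 to 0.59 (limma adjusted p = 0.791), and turned to 0.17 without array 2. Both intervals reach past 0.5 on either side of 0, so a difference of that size was excluded for neither gene.

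Calb1 encodes calbindin-D28k, a calcium-binding protein used as a marker of the bud and its branches. Its log2 ratios were 1.16, 1.05 and 1.00 on arrays 1, 2 and 3. No array came below 1.00, and the lowest was above every array of the genes outside Gata3, Ros1 and Calb1 itself. The mean was 1.07 ± 0.083 (SD, n = 3), a 2.10-fold difference, with a 95% interval of 0.68 to 1.46 (limma adjusted p = 0.109). Its SD was among the lowest 6.11% of genes, and leaving out 1 array moved the mean only between 1.03 and 1.11.

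Ros1 encodes a receptor tyrosine kinase found in the ureteric epithelium of the developing kidney. It had 1.13, 0.33 and 0.88 on arrays 1, 2 and 3. Array 2 was the low one, at less than the other arrays by more than 0.5 log2 units, and all were positive. The mean was 0.78 ± 0.41, a 1.72-fold difference, with a 95% interval of 0.21 to 1.36 (limma adjusted p = 0.210). Without array 1 (mean 0.61) or array 3 (mean 0.73) the unadjusted p was 0.0898 and 0.0656.

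The water channels gave less agreement. Aqp2 had 0.16, 0.32 and 0.54 on arrays 1, 2 and 3. All 3 were positive, and the mean was 0.34 ± 0.19, a 1.27-fold difference. The 95% interval, -0.090 to 0.77, holds 0 (limma adjusted p = 0.379, with the unadjusted p not under 0.05). Aqp3 had 0.36, 0.59 and -0.69. Arrays 1 and 2 were on the positive side and array 3 on the negative, at the 12.4th percentile of that array. The mean was 0.088 ± 0.68, with an interval of -0.72 to 0.89 (limma adjusted p = 0.909), and it was -0.050 without array 1, -0.16 without array 2 and 0.47 without array 3. Aqp2 minus Aqp3 was -0.20, -0.26 and 1.23 on the 3 arrays, so array 3 alone set Aqp2 above Aqp3.

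In the order of the means, which ran from Calb1 through Gata3, Ros1, Elf5, Aqp2, Aqp3, Emx2 and Sox9 to Tfap2b, 0 of 8 neighbouring pairs had array values that did not overlap, and in all 8 the difference between the neighbours was smaller than its own SD over the arrays. The largest neighbouring step was Ros1 over Elf5, at 0.30 ± 0.49. Over all 36 pairs, 16 had ranges that did not overlap, 12 of which set Calb1 or Gata3 above one of the 6 genes from Elf5 downwards. Calb1 and Gata3 differed by 0.053 ± 0.097, with Calb1 above Gata3 on 2 of 3 arrays. A sign-flip test of 1 difference on 3 arrays cannot give a two-sided exact p below 0.25, so no such test was made.

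**Figure D2:**
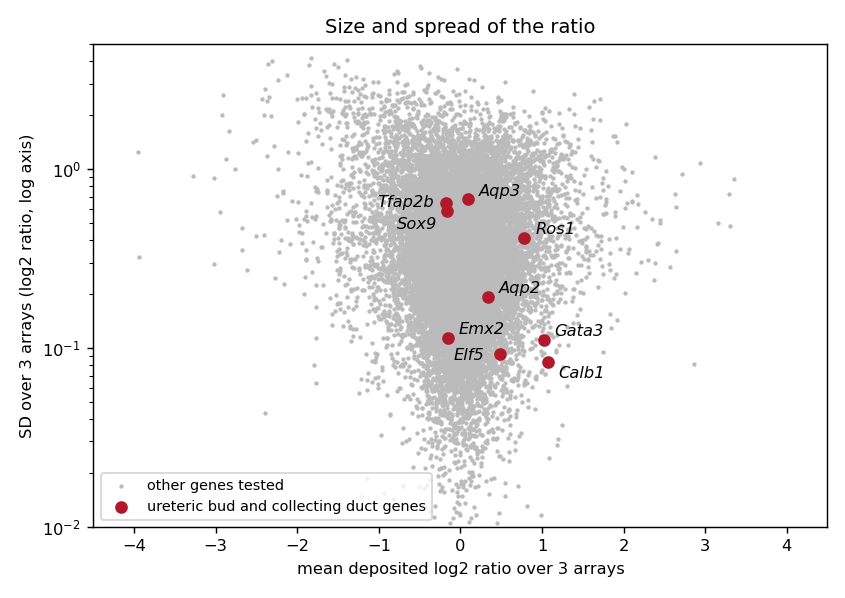
Mean deposited log2 ratio over 3 arrays (horizontal axis) against its SD (vertical, log axis) for the genes tested, with the 9 bud and duct genes in red; 18 genes outside the axes are not drawn. Gata3, Calb1, Elf5 and Emx2 have SDs of 0.083 to 0.11, while Aqp3, Tfap2b and Sox9 have SDs of 0.58 to 0.68.

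The 9 genes also differed in their spread. The SDs of Calb1, Elf5, Gata3 and Emx2 lay between the 6.11th and the 10.8th percentile of all genes, those of Sox9, Tfap2b and Aqp3 between the 76.8th and the 82.1st, and those of Aqp2 and Ros1 at the 26.2nd and the 62.0th. The median SD over all genes was 0.32. Each gene rests on 1 oligo, so a gene and its oligo cannot be told apart here.

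Relatives of the 9 genes had ratios over a wide range. Of the 6 GATA factors, Gata2, which is also expressed in the nephric duct, had 0.60, 0.53 and 0.39 on arrays 1, 2 and 3 (mean 0.50 ± 0.11; limma adjusted p = 0.228; unadjusted p not under 0.05 without array 1 or array 2). Gata3 exceeded Gata2 on all 3 arrays, by 0.51 ± 0.065. Gata1, the red-cell factor, had -1.58, -0.041 and -1.10 (mean -0.91 ± 0.79, limma adjusted p = 0.296). Gata4, Gata5 and Gata6 stood at -0.23 ± 0.55, 0.094 ± 0.23 and -0.068 ± 0.70, each with arrays of both signs.

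Calb2, which encodes the related calretinin, stood at -0.29 ± 0.046, on the other side from Calb1 on every array (limma adjusted p = 0.391). Calb1 minus Calb2 was 1.51, 1.31 and 1.28 on arrays 1, 2 and 3. S100g, which encodes calbindin-D9k, had -0.73, -1.06 and 3.17, so that array 3 alone made its mean of 0.46 ± 2.35 positive. Pvalb, which encodes parvalbumin, stood at -0.15 ± 0.54.

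Among 9 measured aquaporins, including Aqp2 and Aqp3, 6 had a positive mean and only Aqp9 had an unadjusted p under 0.05. Aqp9, a channel for water and small solutes, had 0.66, 0.77 and 1.35 (mean 0.93 ± 0.37; limma adjusted p = 0.162). Aqp5, the closest relative of Aqp2 among them, stood at 0.44 ± 0.52, and Aqp2 minus Aqp5 was -0.096 ± 0.33. Aqp1 stood at 0.17 ± 0.21, Aqp4 at -0.063 ± 0.95, Aqp7 at -0.30 ± 0.36, Aqp8 at -0.13 ± 0.26 and Aqp11 at 0.18 ± 0.42.

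Of the ELF and ESE factors of the ETS family, Elf5 alone of 7 had an unadjusted p under 0.05; the others ran from -0.064 ± 0.067 for Elf2 to 0.69 ± 0.62 for Elf1. Ehf, the ESE factor set beside Elf5, stood at 0.21 ± 0.16, and Elf5 exceeded it on all 3 arrays, by 0.28 ± 0.22. Elf3, Elf4 and Spdef stood at 0.12 ± 0.18, 0.25 ± 0.37 and 0.0043 ± 0.30. Both measured relatives of Tfap2b scattered more than it did. Tfap2a had -2.05, -1.40 and 2.37, and Tfap2c 2.56, -0.0029 and -0.25 (means -0.36 ± 2.38 and 0.77 ± 1.56). The mean of Tfap2a turned positive without array 1 or without array 2, and that of Tfap2c turned negative without array 1. Emx1 stood at -0.23 ± 0.33, and Emx2 differed from it by 0.073 ± 0.24. Otx1, Otx2, Vax1 and Vax2, other head-type homeobox genes, stood at -0.42 ± 0.48, 0.20 ± 0.19, 0.28 ± 1.01 and -0.14 ± 0.28.

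Of 16 SOX genes, Sox1 and Sox4 had an unadjusted p under 0.05, both on the negative side, at -0.74 ± 0.29 and -0.60 ± 0.28 (limma adjusted p = 0.185 and 0.231; the unadjusted p of Sox1 was not under 0.05 without array 1, nor that of Sox4 without array 1 or array 3). Sox8, which acts together with Sox9 in the branching bud, stood at 0.022 ± 0.36. Sox9 minus Sox8 was -0.94, 0.34 and 0.063 on arrays 1, 2 and 3. The relatives of Ros1 had no unadjusted p under 0.05: Alk and Ltk stood at 0.12 ± 0.47 and -0.053 ± 0.34, Insr, Igf1r and Insrr at 0.037 ± 0.83, -0.17 ± 0.19 and -0.31 ± 1.76, and Nell2, which encodes a secreted ligand of ROS1, at -0.35 ± 0.098.

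**Figure D3:**
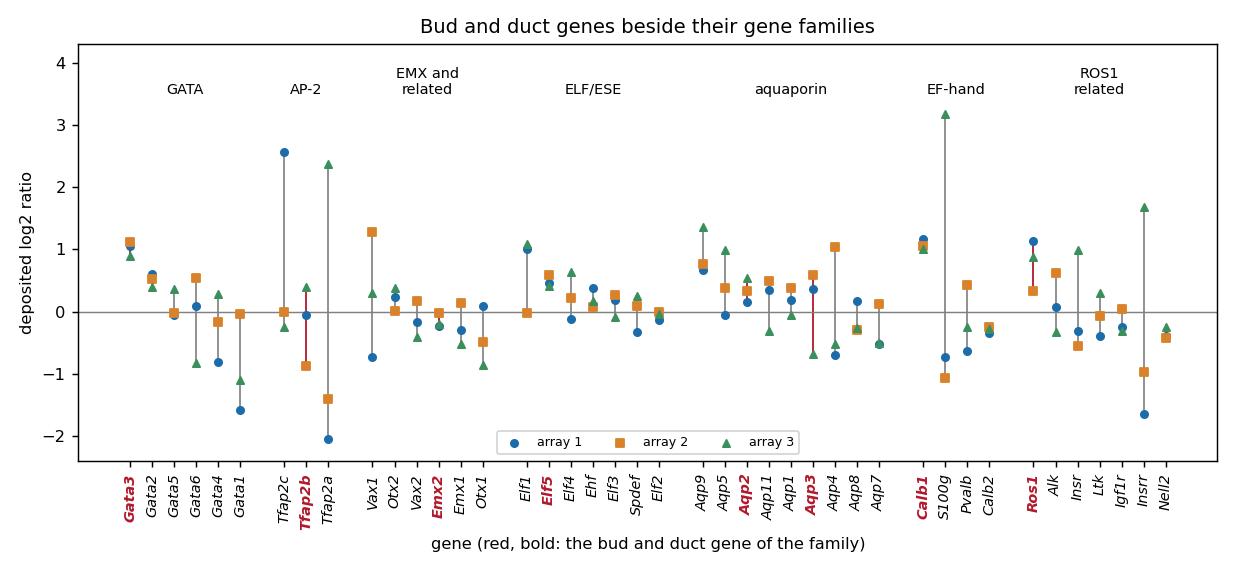
Deposited log2 ratios on each array (vertical axis) for the genes of 7 families, with the bud and duct gene of each family in red and a line joining the lowest and highest array. Gata3 lies above Gata2 and Calb1 above Calb2 on every array, while Tfap2a, Tfap2c, S100g and Insrr have arrays far apart.

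Genes of the duct and of the signalling that drives the bud were set beside the 9 in lists by role. Not all are expressed in the duct itself, and there were 77 measured genes in all. Of these, 54 had a positive mean, the median was 0.12, and 22 had an unadjusted p under 0.05, 19 of them positive and 3 negative, where 16.8% of all genes did; 0 passed limma over all genes. The count was 10 without array 1 and 14 without array 2, and without array 3 it was 22, of which 15 were positive and 7 negative. Over all genes the share in these fits was 8.55%, 10.6% and 19.9%. The mean was positive for 51, 52 and 45 of the 77 without arrays 1, 2 and 3, where 50.9%, 49.7% and 50.8% of all genes had a positive mean. These shares also stand beside the list counts below.

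In the signalling that drives the bud, 8 of 20 genes had an unadjusted p under 0.05, against 16.8% of all genes. Without array 1 there were 5, against 8.55%. Agtr2, an angiotensin receptor with a role in bud branching, had 1.28, 1.50 and 1.89 (limma adjusted p = 0.107), and Etv4, an ETS factor induced by RET in the bud tip, had 1.88, 1.57 and 1.17 (limma adjusted p = 0.109). Slit2 and its receptor gene Robo2, which restrict the site of budding, had means of 1.10 ± 0.13 and 0.73 ± 0.11. Spry2 and Spry1, inhibitors of receptor tyrosine kinase signalling, stood at 0.97 ± 0.30 and 0.79 ± 0.38, and Gdnf at 0.68 ± 0.25. Dusp6, a phosphatase of ERK, was the 1 gene of the 8 on the negative side, at -0.55 ± 0.18. Ret stood at -0.19 ± 0.26, its partner Gfra1 at 0.19 ± 0.16, Wnt11 of the bud tip at 0.13 ± 0.29, and Etv5, the close relative of Etv4, at -0.46 ± 0.68. Gata3 and Calb1, with means of 1.02 and 1.07, thus stood near Slit2 and Spry2 in size.

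Of 17 other transcription factors of duct and epithelium, Gata2 alone had an unadjusted p under 0.05, and the median was 0.074, or 0.16 without array 2 and 0.13 without array 3. Without array 1, 0 of the 17 were under 0.05. Pax2 and Pax8, which act with Gata3 in the nephric duct, stood at 0.29 ± 0.30 and 0.27 ± 0.32, Hoxb7 at 0.24 ± 0.089, and Lhx1 at 0.071 ± 0.99.

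In the duct epithelium list, 8 of 19 genes had an unadjusted p under 0.05, against 16.8% of all genes. There were 2 without array 1, 3 without array 2 and 5 without array 3, against 8.55%, 10.6% and 19.9%. Cdh16, the kidney-specific cadherin, had 3.62, 2.75 and 3.54. The claudin genes Cldn3, Cldn4 and Cldn7 stood at 0.53 ± 0.29, 0.43 ± 0.099 and 0.55 ± 0.10, the protease inhibitor gene Spint2 at 0.67 ± 0.23, Dsp (desmoplakin) at 0.72 ± 0.53 and Krt7 at 0.51 ± 0.26. Krt19 was on the negative side on all 3 arrays, with -0.99, -0.85 and -1.26 (limma adjusted p = 0.115). Krt18 had a mean of 1.08 ± 1.10, with array 3 at 2.35. E-cadherin, Cdh1, stood at 0.12 ± 0.24 and Epcam at 0.19 ± 0.16, both nearer 0 than Gata3 and Calb1.

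Beside Aqp2 and Aqp3, 3 of 12 other genes of principal-cell transport had an unadjusted p under 0.05, against 16.8% of all genes. The count was 2 without array 1, 2 without array 2 and 3 without array 3, against 8.55%, 10.6% and 19.9%. Of the 12 means 7 were positive and 5 negative, with a median of 0.083. The beta and gamma subunits of the epithelial sodium channel, Scnn1b and Scnn1g, had means of 1.01 ± 0.25 and 1.17 ± 0.29 (limma adjusted p = 0.123 and 0.112), with Scnn1b at 0.76, 1.26 and 1.02 and Scnn1g at 0.97, 1.03 and 1.50 on arrays 1, 2 and 3. Both were above Aqp2 on every array. The alpha subunit, Scnn1a, stood at 0.059 ± 0.38, and Fxyd2, a regulator of the sodium pump, at 0.69 ± 0.21. The unadjusted limma p of Fxyd2 was not under 0.05 without array 1 or array 2. Avpr2, the vasopressin receptor that controls AQP2, had -1.18, -0.13 and 2.37, which gives it no settled sign. Of 9 genes of the acid-base transporting intercalated cells, Rhcg, an ammonia transporter gene, stood at 0.67 ± 0.30 and Car2, which red cells express too, at -2.17 ± 0.23; these were the 2 with an unadjusted p under 0.05, and Car2 alone was left of the 2 without array 1 or without array 2, while 4 of the 9 genes were under 0.05 without array 3. Foxi1, their transcription factor, had 2.77 on array 1 and -0.080 and -0.14 on the others.

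**Figure D4:**
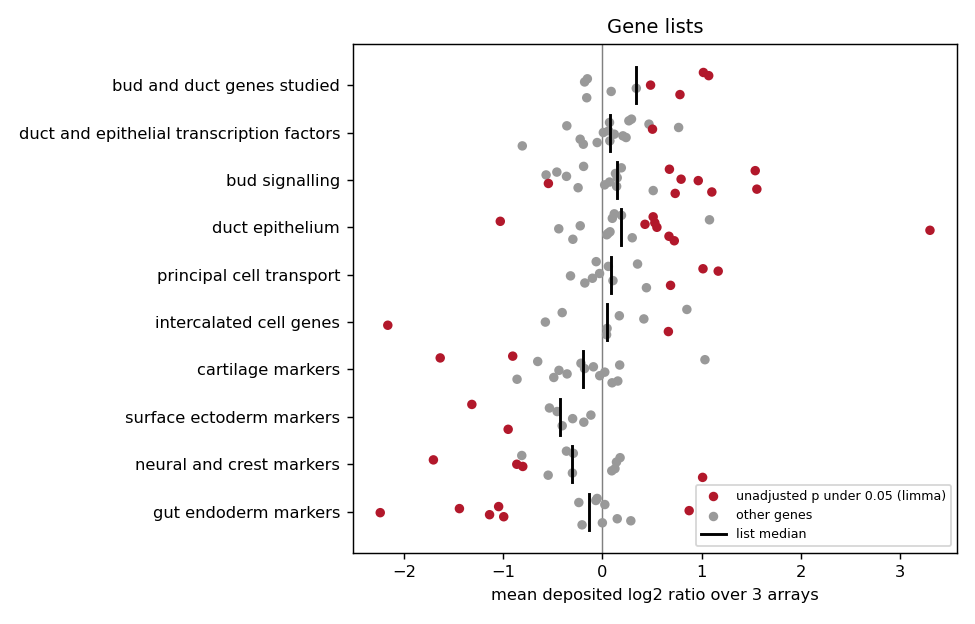
Mean deposited log2 ratios over 3 arrays (horizontal axis) of the genes of each list, with the list median as a bar and genes at an unadjusted limma p under 0.05 in red. The 9 bud and duct genes have a median of 0.34, and the cartilage, surface ectoderm, neural and gut lists have medians below 0.

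Several of the 9 genes are also expressed outside the kidney, Sox9 in cartilage, Tfap2b and Gata3 in neural crest and surface ectoderm, and Calb1 in neurons. Markers of these tissues therefore stand here as measured values, and their part in the ratios of the 9 genes was not tested. Of all genes, 50.3% had a positive mean and 16.8% an unadjusted p under 0.05 (limma). Of 16 cartilage genes 11 had a negative mean, with a median of -0.20, or -0.019 without array 1 and -0.0094 without array 2. Col2a1, the cartilage collagen that SOX9 activates, had -0.95, -0.92 and -0.84 (limma adjusted p = 0.115), and Col9a1 had a mean of -1.64 ± 0.61; Col9a2 was positive on all 3 arrays, at 2.35, 0.61 and 0.14 (mean 1.03 ± 1.17). Sox9 was negative on arrays 1 and 3, as Col2a1 was, and positive on array 2, where Col2a1 was not. Of 8 surface ectoderm genes 8 had a negative mean (7 without array 3), with a median of -0.43 and with Krt5 at -1.32 ± 1.16 and Wnt6 at -0.95 ± 0.19 at an unadjusted p under 0.05; without array 3 only 1 gene was. Of 13 neural and crest genes 8 were negative, with a median of -0.30, and 4 had an unadjusted p under 0.05, or 2 without array 1 and 6 without array 3; Isl1 stood at -1.71 ± 0.37, Gap43 at -0.86 ± 0.042, Nefl at -0.80 ± 0.55 and, on the positive side, Dcx at 1.01 ± 0.61. A further list, of gut endoderm, is not of a site named above and also holds genes for secreted proteins of liver and yolk sac. Of its 14 genes 10 were negative, with a median of -0.14, or -0.27 without array 3, and 6 had an unadjusted p under 0.05. All of the 6 but Cdx2 are such secreted-protein genes. Of these 6, Ttr stood at -2.24 ± 1.00, Afp at -1.44 ± 0.13, Apoa1 at -1.14 ± 0.23, Cdx2 at -1.05 ± 0.74 and Trf at -0.996 ± 0.448, while Alb was positive, at 0.87 ± 0.57. Array by array, the cartilage median was -0.34, -0.31 and 0.12 on arrays 1, 2 and 3. Of the 9 genes, 6 had a positive mean, Gata3 and Calb1 among them, though Aqp3 was negative on array 3. The other 3, Emx2, Sox9 and Tfap2b, had negative means (-0.15, -0.16 and -0.18).

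As a description of likeness, the gene nearest to each of the 9 was sought among 14737 other named genes by Euclidean distance over the 3 array ratios. The nearest to Gata3 was Trim44, at 1.01, 1.08 and 0.89 (distance 0.051), and the nearest to Calb1 was Ap4e1, at 1.11, 1.03 and 0.96 (distance 0.070). Within a distance of 0.2 lay 17 genes for Gata3, 13 for Calb1 and 14 for Ros1, whose nearest was Sct. The same distance held 117 genes for Elf5, 133 for Aqp2 and 368 for Emx2, whose nearest were 1700025B11Rik, Antkmt and Slc22a15, and 18, 8 and 6 for Aqp3, Sox9 and Tfap2b, whose nearest were Ccdc162, Pvalb and Lrrc42. Genes near 0 with small spread have more neighbours, since most ratios lie there.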

How the data were processed

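The authors deposited log2 ratios of the channels of each array; the log base was read from the values, which as powers of 2 are ratios of 3 decimals for 99.7% to 99.8% of oligos (within 0.01 of the last decimal). Per the labels' protocols, images were read with ImaGene 5.5 and normalised by print-tip loess and between arrays. A lowess curve fitted on 20% of the data at each point is also described, in which 10 replaced any lower control value; the sources used here do not order these steps. Such centring would hide a shift common to most genes.

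Of 22702 spots, 881 controls were left out, and 21094 of 21821 library oligos had a value on all 3 arrays. Oligos of 1 symbol were averaged, and oligos of several or no symbols stayed unnamed. For each of 19635 genes limma 3.58.1 (R 4.3.3) compared the mean with 0 (intercept only, eBayes, two-sided; Benjamini-Hochberg over the whole table, threshold 0.05), which was tested on simulated data. Errors are SDs over arrays unless stated. The labels give no batch.

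The 9 genes and all lists were chosen with earlier results of these data known. Genes outside the 9 were named if their unadjusted p was under 0.05 or their mean at least 1 in size. Relatives of the 9, and the gene nearest in pattern to each, were named whatever their values. A few further duct genes were added after their values were seen. Among them were Ret, Gfra1, Wnt11, Etv5, Pax2, Pax8, Hoxb7, Lhx1, Cdh1, Epcam, Scnn1a, Avpr2 and Foxi1. Amh, Th, Phox2a and Hand1, of the gonad and sympathoadrenal lists, were also named outside this rule. Alternatives covered leaving out each array, array scaling and weights, missing values, oligo averaging, the variance prior and unnamed oligos. RefSeq's GRCm38.p6 table gave the promoter windows.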

Additional observations from a re-analysis of the deposited data

How the results depend on the processing

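Across 10 alternative settings the 9 genes gave 90 values, of which 86 kept their sign and their side of the adjusted threshold, and 0 reached an adjusted p under 0.05. The settings for oligo averaging, missing values, the variance prior and unnamed oligos could not move these means. Each gene has 1 oligo with a value on all 3 arrays, so its sign there was fixed in advance. Gata3 ranged from 0.97 to 1.08 and Calb1 from 1.03 to 1.11; their lowest adjusted p was 0.0769, and with 1 array left out it ran up to 0.498 and 0.495. The other 4 values changed sign, all with 1 array left out: Aqp3 ranged from -0.16 to 0.47 (-0.050 without replicate 1 and -0.16 without replicate 2), Sox9 from -0.48 to 0.084 (the latter without replicate 1) and Tfap2b from -0.47 to 0.17 (the latter without replicate 2); the cause was not tested. The number of the 9 at an unadjusted p under 0.05 was 2 to 3 with 1 array left out, Gata3 and Calb1 each time, and 4 in the other 7 settings. Over all genes the share was 8.55%, 10.6% and 19.9% without replicates 1, 2 and 3, and 21.5% with array weights, against 16.8% as reported. Fits on 2 arrays have fewer degrees of freedom, yet the share rose without replicate 3, and the cause was not tested. The number with a positive mean was 6, and that with a mean of at least 1 in size 2, in every setting. These were not always the same genes. Among the positive means, Sox9 took the place of Aqp3 without replicate 1, and Tfap2b did so without replicate 2. Without replicate 2, Ros1 (1.01) also took the place of Gata3 (0.97) among the means of at least 1. No paired analysis was possible because the 3 arrays form 1 group and each already holds both tissues. Spot intensities were not used here, so signal over background sets a limit that cannot be stated.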

Other observations

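Genes of the gonad and adrenal, which form beside the kidney and in which Emx2, Sox9 and Gata3 are also expressed, went both ways. Of 13 measured genes 7 had a positive mean, against 50.3% of all genes. The median was 0.18 (0.055 without array 1 and 0.049 without array 3). An unadjusted p under 0.05 (limma) was found for 4, against 16.8% of all genes. There were 2 without array 1 and 2 without array 2, against 8.55% and 10.6%, while 0 passed over all genes. Nr5a1, the steroidogenic transcription factor, had 1.21, 0.77 and 0.40 on arrays 1, 2 and 3, and Cyp11a1 and Hsd3b1, enzymes of steroid synthesis, had means of 0.64 ± 0.13 and 0.91 ± 0.32 (SD, n = 3). Star, which moves cholesterol into mitochondria, was on the negative side at -0.61 ± 0.40, and its unadjusted p was not under 0.05 without array 1 or array 2. Amh, a product of Sertoli cells that SOX9 activates, stood at -0.0041 ± 0.058. Of 4 genes of the sympathoadrenal lineage, in which Gata3 also acts, Hand2 stood at -0.64 ± 0.43, Th at -0.35 ± 1.02, Phox2a at 0.0085 ± 0.17 and Hand1 at 0.31 ± 0.78.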
